A study of Homo sapiens with 6 samples.

Results

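The 10 genes described here are immediate early genes, which cells transcribe within minutes of a growth factor, cytokine or stress signal without first making new protein. They were taken by gene symbol from the gene count table: the zinc finger transcription factors EGR1, EGR2 and EGR3, the Krüppel-like factors KLF2, KLF4, KLF6 and KLF10, the immediate early response genes IER2 and IER3, and the mRNA decay protein ZFP36. All 10 were found among the 58735 genes of the table, and 8 of them had enough counts to be tested among 16655 genes. The cells were T3M4, an established line of human pancreatic ductal adenocarcinoma, grown without treatment in serum-containing medium to near confluence. They were sequenced as 3 libraries labelled MUC16 knockout (KO) and 3 labelled MUC16 expressing, whose titles say WT. How the knockout was made, and whether it is 1 clone or a pool, is not given in the sources used here. By its labels the comparison is between cells without and with MUC16, a large membrane mucin.

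MUC16 transcripts went against the labels. The libraries labelled KO had 292, 504 and 323 MUC16 counts, against 98, 144 and 90 in the libraries labelled WT (log2 fold change 1.79 ± 0.17, SE, edgeR quasi-likelihood adjusted p = 4.79e-09). Gene-level counts say nothing of whether the transcript was edited. All directions given here are those of libraries labelled KO relative to libraries labelled WT. Whether the labels were exchanged was not tested, and an exchange would reverse every direction given. Totals ran from 19088927 to 28612621 counts per library. All 6 epithelial markers (keratins and adhesion genes) were called higher, with summed levels of 5492 to 5756 CPM (counts scaled to the size of the library, with TMM factors) in libraries labelled KO and 3488 to 3567 CPM in those labelled WT. Fibroblast markers summed to 42.4 to 46.7 CPM in KO-labelled and 30.7 to 34.1 CPM in WT-labelled libraries, almost all of it COL1A1, and 1 of 2 tested was higher. Endothelial markers summed to 19.8 to 22.1 CPM (KO-labelled) and 13.4 to 16.7 CPM (WT-labelled), mostly PECAM1, with 3 of 3 tested higher. Leukocyte markers summed to 4.32 to 5.42 CPM (KO-labelled) and 3.003 to 3.12 CPM (WT-labelled), with 1 of 2 tested higher, or 2 without KO replicate 2. COL3A1, KDR and CD3E were near 0 in both groups. The largest log2 fold changes of these lists were those of LYZ (2.93), CDH5 (1.53) and VWF (1.40), all called higher at low levels. Their means were 0.937, 2.10 and 0.720 CPM in KO-labelled and 0.117, 0.721 and 0.264 CPM in WT-labelled libraries. The part of these differences in the results was not tested. The labels do not say if replicates were grown as separate cultures, and p-values therefore reflect a spread between libraries that may be technical.

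In textbook outline, growth factor receptors signal through RAS and the kinase ERK to ternary complex factors such as ELK1, which sit with serum response factor (SRF) on CArG boxes in immediate early promoters. EGR and KLF proteins then bind GC-rich sites in later genes, NAB1 and NAB2 hold EGR proteins in check, and ZFP36 brings deadenylases to mRNAs with AU-rich elements, so that the pulse ends. In epithelia KLF4 is known for growth arrest and differentiation, and IER3 for control of cell death downstream of ERK and NF-kB.

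The 10 genes did not move as one. IER3 and EGR1 fell to about 0.67 and 0.70 of the WT-labelled level, while KLF2 rose 1.91-fold, KLF4 1.37-fold and IER2 by less, 1.12-fold. KLF6, KLF10 and ZFP36 did not pass the test, and EGR2 and EGR3 were too scarce to test. Thus 3 of the 8 tested genes were called higher and 2 lower (edgeR quasi-likelihood test, adjusted p under 0.05 by Benjamini-Hochberg over all 16655 genes). Among all genes tested 26.7% were called higher and 25.9% lower, 52.6% in all, so the share called among the 8 (62.5%) was near the background. For 6 of the 8 the groups did not overlap, as for 59.0% of all genes tested. None of the 8 changed by 2-fold. Their median log2 fold change was -0.01, and that of all genes tested 0.00. In bulk RNA a change of level per cell and a change in the share of cells that express a gene cannot be told apart.

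**Figure D1:**
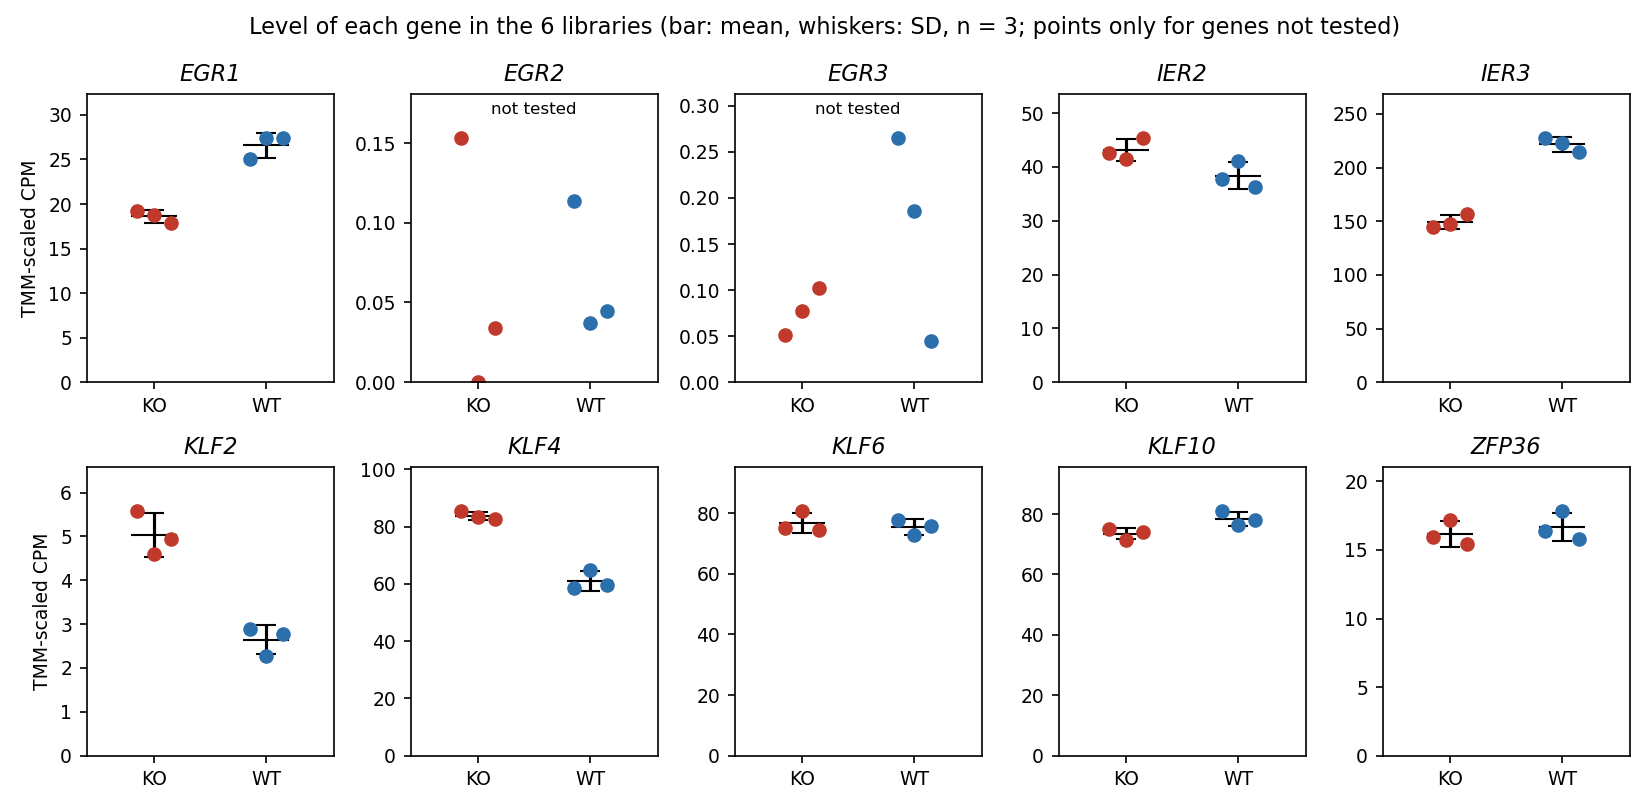
Level of each of the 10 genes (y axis, TMM-scaled CPM from 0) in the 3 libraries labelled KO (left, red points) and the 3 labelled WT (right, blue points), with mean and SD for the 8 tested genes. IER3 and EGR1 lie lower and KLF2, KLF4 and IER2 higher in KO without overlap, while EGR2 and EGR3 stay under 0.3 CPM.

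Promoter sequences are shown because EGR1 fell while KLF2, KLF4 and IER2 rose, and because the EGR1 window holds CArG boxes. They are RefSeq sequences on GRCh38.p14, from 250 bases before to 50 bases after the RefSeq start, read 5′ to 3′ in the direction of the gene. That start can differ from the start of the gene as counted. The whole KLF4 window lies inside the span of the counted gene, 107484852 to 107490482. RefSeq windows were matched for 7 of the 10 genes, the others being EGR3, IER3 and KLF10. In EGR1 (chr5:138465229-138465528, plus strand) capitals mark both CArG boxes and both copies of ACGTCA, the core of the cAMP response element, found on either strand. In KLF4 (chr9:107489720-107490019, minus strand), KLF2 (chr19:16324576-16324875, plus strand) and IER2 (chr19:13150161-13150460, plus strand) capitals mark GC boxes, GGGCGG on either strand, some of which run into each other.
EGR1: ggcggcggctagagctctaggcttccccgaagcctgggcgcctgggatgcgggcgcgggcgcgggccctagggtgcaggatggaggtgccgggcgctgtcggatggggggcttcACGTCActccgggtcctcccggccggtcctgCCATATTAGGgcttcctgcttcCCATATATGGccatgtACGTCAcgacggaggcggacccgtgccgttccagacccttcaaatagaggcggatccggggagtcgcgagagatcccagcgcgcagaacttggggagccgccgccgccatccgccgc
KLF4: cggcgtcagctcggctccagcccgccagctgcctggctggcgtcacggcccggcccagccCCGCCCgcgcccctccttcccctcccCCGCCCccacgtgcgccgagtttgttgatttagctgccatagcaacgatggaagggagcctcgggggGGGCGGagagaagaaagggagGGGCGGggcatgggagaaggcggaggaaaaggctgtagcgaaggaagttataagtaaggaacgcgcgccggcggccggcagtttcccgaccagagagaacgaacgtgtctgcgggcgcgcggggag
KLF2: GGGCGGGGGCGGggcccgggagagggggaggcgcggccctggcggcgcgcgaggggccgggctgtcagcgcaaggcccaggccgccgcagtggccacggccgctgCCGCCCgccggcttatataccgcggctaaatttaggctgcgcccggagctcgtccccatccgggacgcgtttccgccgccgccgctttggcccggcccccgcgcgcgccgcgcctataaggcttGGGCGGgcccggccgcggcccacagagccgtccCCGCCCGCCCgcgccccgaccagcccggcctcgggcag
IER2: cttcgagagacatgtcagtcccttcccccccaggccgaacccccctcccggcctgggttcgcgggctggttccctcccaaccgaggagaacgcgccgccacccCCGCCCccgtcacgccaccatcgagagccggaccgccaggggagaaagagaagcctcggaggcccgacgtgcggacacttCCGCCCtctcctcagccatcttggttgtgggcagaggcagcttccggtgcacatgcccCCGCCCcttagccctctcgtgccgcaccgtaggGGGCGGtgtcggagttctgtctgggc

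The EGR1 window held 2 CArG boxes, whose first bases lie 105 and 83 bases before the start. Of 34796 distinct RefSeq promoter windows of this length, 1.30% held a CArG box, and 0.0316% held at least 2. The ACGTCA core, also 2 times in EGR1, was in 7.97% of windows. EGR2 has 3 windows, and window 3 held 1 CArG box and 1 ACGTCA, 71 and 55 bases before its start. GC boxes were matched in 6 of the 7 genes with a window, whatever their call: KLF2 had 6, KLF4 and IER2 had 4 each, and the uncalled ZFP36 and KLF6 had 3 and 2. Windows 1 and 2 of EGR2, a gene too scarce to test, had 2 and 4. None was matched in EGR1, and 44.9% of all windows had at least 1. The EGR binding site GCGTGGGCG, whose end can share bases with a GC box, was in 0.793% of windows and in none of these. Other motifs were searched too. The full cAMP response element TGACGTCA, in 1.84% of windows, was matched in none of these. The ETS core CCGGAA (17.2%) was matched in IER2 alone. The KLF core CACCC (59.8%) was matched in EGR1, IER2, ZFP36 and windows 1 and 2 of EGR2, but not in KLF2, KLF4 or KLF6. No called gene with a window had an AP-1 or TEAD site. A match describes letters and shows no binding.

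EGR1 encodes early growth response 1, a transcription factor that growth factors induce through ERK and SRF (ENSG00000120738, GRCh38 chromosome 5, 138465490 to 138469315, plus strand). It had 376, 482 and 522 counts in the libraries labelled KO, against 659, 739 and 611 in those labelled WT. As TMM-scaled levels these were 19.2, 18.8 and 17.8 CPM in the KO-labelled libraries and 25.0, 27.5 and 27.4 CPM in the WT-labelled ones. All 3 KO values were lower than every WT value, and WT replicate 1 was the lowest of its group. The means were 18.6 ± 0.720 CPM (KO-labelled) and 26.6 ± 1.40 CPM (WT-labelled; SD, n = 3 each), a log2 fold change of -0.52 ± 0.07 (SE, adjusted p = 3.23e-06). The authors' deposited table gives -0.53 for EGR1.

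EGR2 and EGR3, its close relatives, had almost no reads. EGR2 (ENSG00000122877) lies on GRCh38 chromosome 10 at 62811996 to 62919900, and EGR3 (ENSG00000179388) on chromosome 8 at 22687659 to 22693302, both on the minus strand. EGR2 had 3, 0 and 1 counts in the libraries labelled KO and 3, 1 and 1 in those labelled WT, and EGR3 had 1, 2 and 3 in the KO-labelled against 7, 5 and 1 in the WT-labelled libraries. Summed over libraries and scaled for depth, the ratio of KO-labelled to WT-labelled EGR3 reads was 0.468 with an exact 95% interval of 0.146 to 1.32, and that of EGR2 was 0.811 with an interval of 0.161 to 3.77. These intervals cover counting error only, and a difference was not detectable at this depth. A gene on the opposite strand, AC055854.1, overlaps EGR3 and had 1 count in all KO-labelled libraries together and 0 in the WT-labelled ones. EGR4 was not tested for the same lack of counts.

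IER3, a small membrane-associated protein and the most abundant of the 10 genes per length, had the largest fall among the 8 tested (ENSG00000137331, GRCh38 chromosome 6, 30743199 to 30744554, minus strand). Its counts were 2819, 3788 and 4597 in the libraries labelled KO, against 6007, 5989 and 4784 in those labelled WT. On the CPM scale the KO-labelled libraries had 144.3, 147.4 and 157.0, and the WT-labelled libraries 227.9, 222.6 and 214.4. The groups were far apart, with the highest KO value well under the lowest WT value. The log2 fold change of IER3 was -0.57 ± 0.04 (SE, adjusted p = 1.92e-10). An antisense gene, IER3-AS1, overlaps IER3 and had 5 counts in all KO-labelled libraries together and 0 in the WT-labelled ones. IER5, a nuclear relative by name, did not pass (log2 fold change 0.03), nor did IER3IP1 (0.27, adjusted p = 0.0630) or IER5L. With upper-quartile factors, cyclic loess or the stricter filter 1 of these 3 was called higher.

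IER2, a nuclear protein induced with FOS and JUN, went slightly the other way (ENSG00000160888, GRCh38 chromosome 19, 13150415 to 13154908, plus strand). It had 42.5, 41.4 and 45.4 CPM in the libraries labelled KO and 37.8, 41.1 and 36.3 CPM in those labelled WT. The lowest KO value was barely above the highest WT value. The log2 fold change of IER2 was 0.17 ± 0.06 (SE, adjusted p = 0.0291). The call was lost without KO replicate 1 (adjusted p = 0.0538), KO replicate 3 (0.127), WT replicate 1 (0.0791) or WT replicate 3 (0.159), with no filter (0.0602) and with DESeq2 (0.0516). In the authors' deposited table the adjusted p of IER2 is 0.0978.

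KLF2 and KLF4, both of which restrain growth in several tissues, rose. KLF2 is ENSG00000127528 (GRCh38 chromosome 19, 16324817 to 16327874, plus strand). Its counts were 109, 118 and 145 for libraries labelled KO, against 76, 61 and 62 for those labelled WT. These were 5.58, 4.59 and 4.95 CPM in KO-labelled and 2.88, 2.27 and 2.78 CPM in WT-labelled libraries, so every KO value was above every WT value. Among the 8 tested genes KLF2 had the largest change and the widest error (log2 fold change 0.93 ± 0.17, SE, adjusted p = 5.26e-05). Its 95% interval ran from 0.58 to 1.27.

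KLF4 (ENSG00000136826, GRCh38 chromosome 9, 107484852 to 107490482, minus strand) was next to IER3 in level per length in the KO-labelled libraries. It had 85.4, 83.2 and 82.6 CPM in the libraries labelled KO and 58.5, 64.8 and 59.7 CPM in those labelled WT, with 1669, 2138 and 2420 counts (KO-labelled) against 1542, 1744 and 1332 (WT-labelled). The KO-labelled values were the most even of any tested member, with a coefficient of variation of 1.76%, and lay clear of the WT-labelled ones. The log2 fold change of KLF4 was 0.46 ± 0.05 (SE, adjusted p = 7.51e-08).

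KLF6, a ubiquitous factor induced by injury and often altered in tumours, did not pass (ENSG00000067082, GRCh38 chromosome 10, 3775996 to 3785281, minus strand). It had 75.0, 80.7 and 74.5 CPM in the libraries labelled KO and 77.9, 72.6 and 75.8 CPM in those labelled WT. The groups overlapped, and the 95% interval of the log2 fold change was -0.08 to 0.13 (adjusted p = 0.694).

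ZFP36, also called tristetraprolin, likewise overlapped between the groups (ENSG00000128016, GRCh38 chromosome 19, 39406813 to 39409412, plus strand). Its levels were 15.9, 17.2 and 15.4 CPM in the KO-labelled libraries and 16.4, 17.8 and 15.8 CPM in the WT-labelled ones. The 95% interval of its log2 fold change was -0.22 to 0.13 (adjusted p = 0.679), which leaves room for a small change in either direction.

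KLF10 is known as an early gene of the TGF-beta response (ENSG00000155090, GRCh38 chromosome 8, 102648779 to 102655902, minus strand). It had 75.0, 71.5 and 74.2 CPM in the KO-labelled libraries and 81.0, 76.4 and 78.1 CPM in the WT-labelled ones. Each KO value was below each WT value, yet the difference did not pass (log2 fold change -0.09 ± 0.05, SE, adjusted p = 0.102). Its 95% interval was -0.19 to 0.00.

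**Figure D2:**
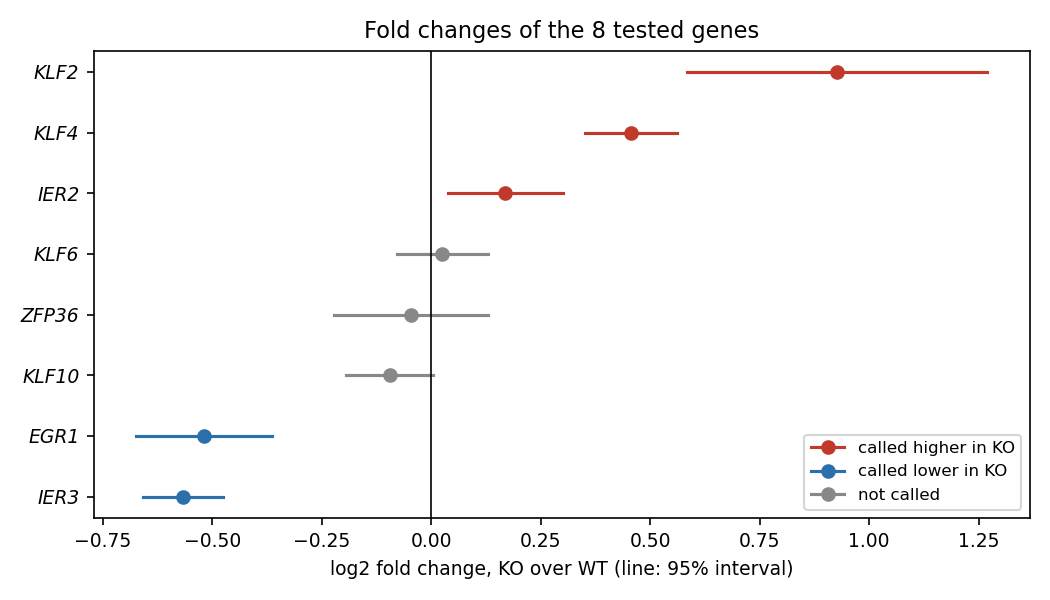
Log2 fold change of the 8 tested genes, KO over WT (x axis), with 95% intervals as lines. KLF2, KLF4 and IER2 lie above 0 and EGR1 and IER3 below it, while the intervals of KLF6, ZFP36 and KLF10 include 0.

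Levels between genes were compared per kilobase of the gene length given with the counts, on the scale of CPM per kilobase. That length can be shorter than the span between the coordinates printed above, as for EGR1 at 3138 bases. IER3 led by far, with means of 110.3 in the libraries labelled KO and 163.5 in those labelled WT. In the KO-labelled libraries KLF4 came next at 22.9, then KLF10 at 18.4, IER2 at 14.04, KLF6 at 12.5, ZFP36 at 8.04, EGR1 at 5.93 and KLF2 at 2.50. In the WT-labelled libraries KLF10 at 19.6 stood above KLF4 at 16.7, and EGR1 at 8.48 above ZFP36 at 8.29. IER2 and KLF6 overlapped in the WT-labelled libraries (11.8 to 13.4 and 11.8 to 12.7), as did EGR1 and ZFP36 (7.97 to 8.75 and 7.87 to 8.87). In the KO-labelled libraries no neighbours in this order of tested genes overlapped. KLF4 and KLF10 thus changed places between the groups, and EGR1 dropped below ZFP36.

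No library was high or low for all 8 tested genes. After subtraction of the group mean of log2 CPM, KO replicate 1 was the highest of its group for 4 of the 8, and KO replicates 2 and 3 for 2 each. WT replicates 1 and 2 were each the highest of their group for 4 genes. The median deviation of the 8 genes was between -0.02 and 0.03 (log2) in every library. Of 18 other immediate early genes, described below, KO replicate 3 and WT replicate 1 were each the highest of their group for 12. Median deviations of those 18 were -0.04 to 0.04. Among 8 AP-1 genes no library was the highest for more than 4. Within a group the coefficient of variation was 1.76% to 12.5%, and KLF2 had the largest in both groups.

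EGR1 lies on chromosome 5, whose genes were more often lower than higher in the libraries labelled KO, near EGR1 and elsewhere. Of 19 other tested genes within 1 Mb of EGR1, 11 were called lower and 1 higher, with a median log2 fold change of -0.32. From here on a lone number in brackets after a gene is its log2 fold change, KO over WT. On both sides of EGR1 the nearest were KDM3B, a histone demethylase (-0.28), and the translation release factor ETF1 (-0.51). HSPA9, a mitochondrial chaperone, had 454.0 CPM in KO-labelled and 750.1 CPM in WT-labelled libraries (-0.72), and the mitotic kinesin KIF20A had 82.2 CPM in KO-labelled and 148.9 CPM in WT-labelled ones (-0.86). PAIP2 was the 1 gene called higher (0.21), and alpha-catenin, CTNNA1, did not pass (-0.01). Over the whole chromosome 365 of the other 780 tested genes were called lower and 111 higher, with a median of -0.20. Among all genes tested 25.9% were called lower and 26.7% higher. Of the 780, 144 (18.5%) fell at or below the value of EGR1. The part of this regional and chromosome-wide difference in the EGR1 value was not tested.

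The surroundings of the other called genes went both ways or, near KLF4, down. Around IER3, 20 of 70 tested genes within 1 Mb were higher and 13 lower (median 0.10). Several close neighbours were among the lower ones, including the tubulin TUBB (-0.40), MDC1 (-0.28) and PPP1R18 (-0.40), whereas the adjacent FLOT1 was higher (0.23). Around KLF2, 9 of 41 were higher and 10 lower (median -0.12). Around IER2, 20 of 51 were higher and 10 lower (median 0.09). The only tested genes within 1 Mb of KLF4 were RAD23B (-0.16) and ZNF462 (-0.35), both lower. IER2, KLF2 and ZFP36 share chromosome 19 with MUC16, where the other tested genes had a median of 0.08.

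**Figure D3:**
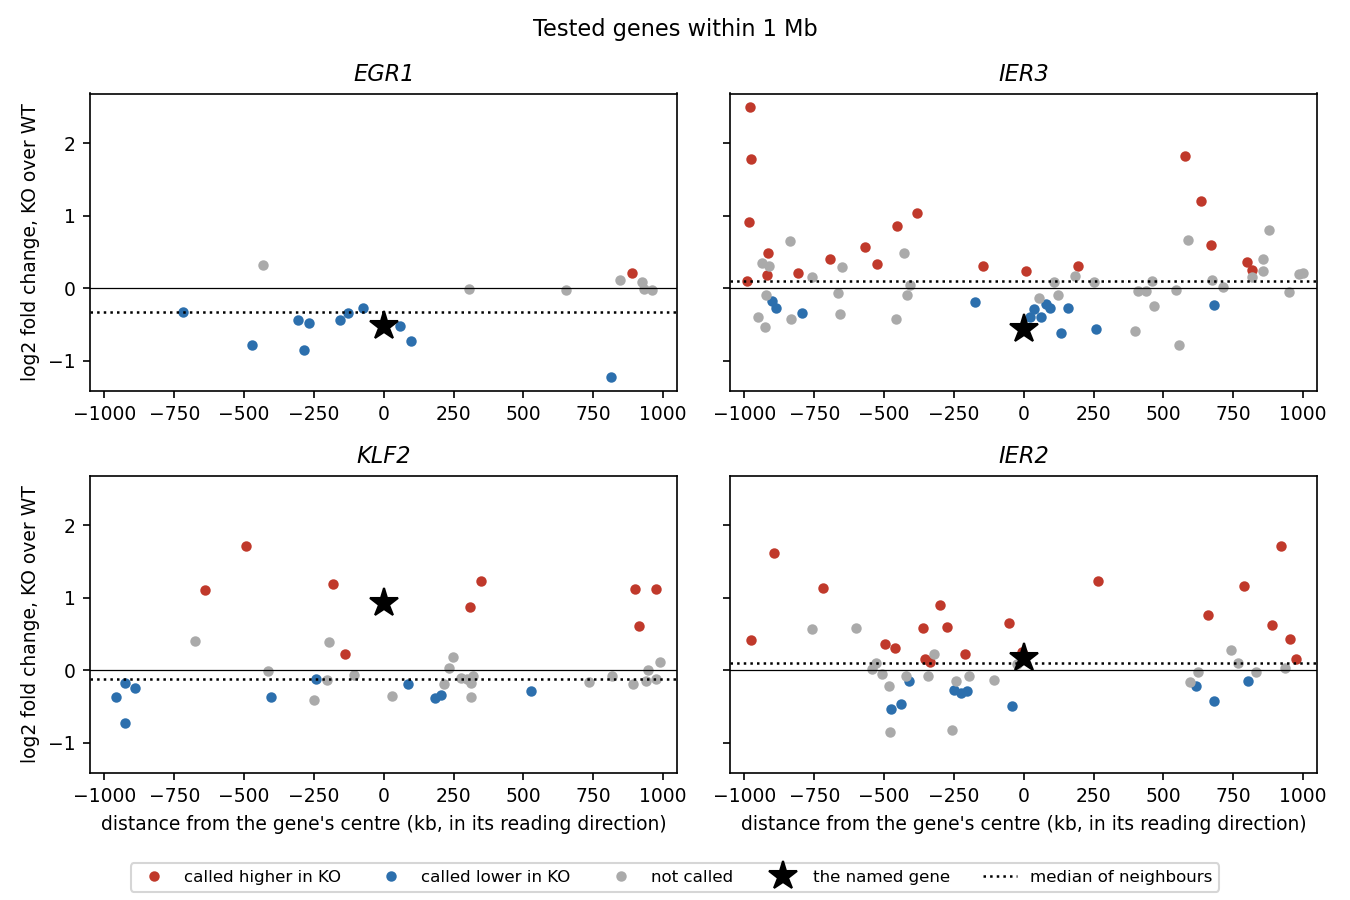
Log2 fold change, KO over WT (y axis), of tested genes within 1 Mb of EGR1, IER3, KLF2 and IER2, against distance in kilobases (x axis). The star is the named gene and the dotted line the median of its neighbours, at -0.32 for EGR1, 0.10 for IER3, -0.12 for KLF2 and 0.09 for IER2.

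The genes around the 10 in the pathway were described through lists drawn up with earlier results known, so their counts carry no test. Of the other KLF genes 4 of 8 tested were higher and 0 lower, with KLF3 (0.38), KLF7 (0.38) and KLF5 (0.20) named by size. Without WT replicate 2, 1 was lower. KLF5, which drives growth of gut and pancreatic epithelium, had 494.9 ± 3.39 CPM in the libraries labelled KO and 430.5 ± 9.55 CPM in those labelled WT. With the 4 members, 6 of 12 tested KLF genes were higher, 0 lower and 6 not called. Among the uncalled ones KLF10 (-0.09) and KLF12 (-0.17) lay below 0. Of all genes tested, 26.7% were called higher and 25.9% lower. Of 6 related SP factors only SP2 passed, and it was lower (-0.35). Among partners of EGR proteins the corepressor NAB1 was called higher by a little (0.12, adjusted p = 0.0225). That call was lost with no filter and without KO replicate 1 or 3 or WT replicate 1 or 3, each leaving 0 partners called higher. NAB2, itself an EGR target, had 45.5 CPM in KO-labelled and 47.1 CPM in WT-labelled libraries and did not pass.

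Upstream of the family, SRF fell to 84.1 ± 2.24 CPM in the libraries labelled KO, against 113.2 ± 4.08 CPM in those labelled WT (SD, n = 3 each). With it fell ELK4 (-0.31) and the SRF coactivator MRTFB (-0.25), so that 3 of 6 tested genes of this list were lower and 0 higher. ELK1, ELK3 and MRTFA did not pass. Of the CREB factors only the coactivator CRTC2 changed, and it was lower (-0.25), but 2 were lower without KO replicate 2. The ERK cascade went both ways, with 5 higher and 4 lower of 14. The higher count was 3 with no filter and without KO replicate 1 or WT replicate 2, and the lower count was 1 under cyclic loess. MAPK3, which encodes ERK1, rose (0.59), and HRAS fell (-0.35). The ERK feedback list, MAP kinase phosphatases and SPRY and SPRED inhibitors not all particular to ERK, had 3 higher and 5 lower of 12. The phosphatase DUSP8 rose (1.80) at low levels, 3.56 CPM in KO-labelled and 1.03 CPM in WT-labelled libraries. SPRY4 (-1.16) and the nuclear phosphatase DUSP2 (-0.82) fell.

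AP-1 genes and other immediate early genes also went both ways. Of 8 AP-1 genes, not all of which are immediate early, 5 were higher and 2 lower. Among them JUND was up (1.21), and FOSL1 (-1.38) and JUN (-0.84) were down. FOS itself was a little higher (0.34, adjusted p = 0.0342). Only 4 AP-1 genes were higher under cyclic loess, with no filter or with the DESeq2 test. The same held without KO replicate 2, WT replicate 1 or WT replicate 3. Of 18 further immediate early genes 5 were higher and 6 lower, or 3 higher without KO replicate 3. The matricellular genes CTGF (-1.79) and CYR61 (-1.36) and the kinase PLK3 (-0.96) had the largest changes of that list. Its median was 0.00, as for all genes.

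**Figure D4:**
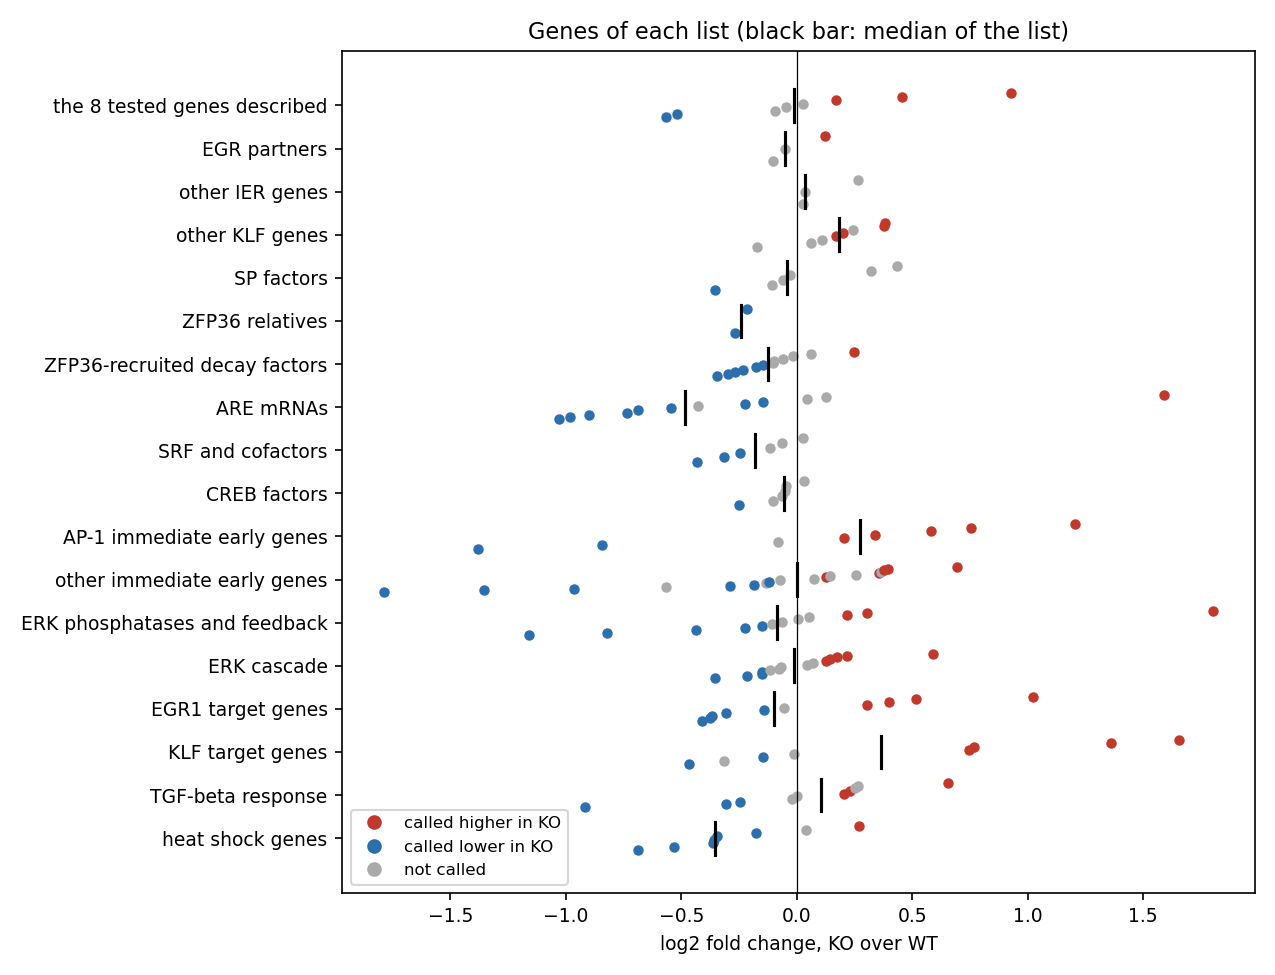
Log2 fold change, KO over WT (x axis), of each tested gene of the lists (rows), with the median of each list as a black bar. Genes of the AP-1, other immediate early and ERK feedback lists lie on both sides of 0, while most AU-rich mRNAs and heat shock genes lie below it.

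Members differ in the AU-rich elements that ZFP36 binds. IER3 had 6 copies of ATTTA and 4 of the longer TATTTAT in its 737-base 3′ untranslated region, and ZFP36 had 5 and 3 in 713 bases. KLF2 and KLF6 had 1 TATTTAT each and the other 6 genes none. Of all 3′ untranslated regions within 10% of the length of that of IER3, 20.8% held TATTTAT. The share was 20.4% for ZFP36, 22.5% for KLF2 and 59.5% for KLF6, which was not called and whose site is not shown. A site each of IER3, ZFP36 and KLF2, on GRCh38, is shown with TATTTAT in capitals. These sites were chosen because IER3 fell, ZFP36 did not pass and KLF2 rose while all hold the element. They lie at chr6:30743655-30743681 on the minus strand, chr19:39409186-39409212 on the plus strand and chr19:16327092-16327118 on the plus strand.
IER3: ctcctaattaaTATTTATatgtattta
ZFP36: gcccttTATTTATgacgactttattta
KLF2: ccctcccaaactgtgactggTATTTAT

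Among 12 tested mRNAs reported as ZFP36 targets 8 were lower and 1 higher, with a median log2 fold change of -0.49. Interleukin 1 beta, IL1B, fell to 56.9 ± 0.971 CPM in KO-labelled libraries, against 116.0 ± 8.04 CPM in WT-labelled ones, and the chemokine CXCL8 to 30.9 ± 1.98 CPM, against 61.0 ± 5.61 CPM (SD, n = 3 each). IL6 was the 1 that rose (1.59; 2 were higher without KO replicate 2, with upper-quartile factors or under the stricter filter, and 3 under cyclic loess), at 3.56 CPM in KO-labelled against 1.17 CPM in WT-labelled libraries. CXCL8, CXCL1, CXCL2 and CXCL3, all among the lower genes, are chemokine genes of chromosome 4. ZFP36L1 and ZFP36L2, relatives of ZFP36 with the same function, both fell (-0.22 and -0.27). In a list of 12 genes of mRNA decay around ZFP36, 6 were lower and 1 higher. This list also holds the poly(A)-binding protein PABPC1 and the kinase MAPKAPK2. Lowest were DCP1A (-0.35), PABPC1 (-0.30) and CNOT6 (-0.27), and MAPKAPK2 did not pass. Under cyclic loess 3 of the list were lower.

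Genes reported as targets of the factors went in no single direction. Of 10 EGR1 targets 5 were lower and 4 higher, with PDGFB lower (-0.41) and the apoptosis gene BBC3 (1.02) and the adhesion receptor ICAM1 (0.52) higher. Of 8 tested KLF targets 4 were higher and 2 lower (median 0.37). The lower count was 1 with upper-quartile factors and without KO replicate 2 or 3 or WT replicate 1 or 3, and under the stricter filter 2 were higher and 1 lower. Thrombomodulin, THBD, also known as a KLF2 target in endothelium, fell to 149.0 ± 1.96 CPM in KO-labelled libraries, against 206.0 ± 6.62 CPM in WT-labelled ones (-0.47). NOS3 (1.36), another, rose at levels under 3 CPM, and S1PR1 had 15.8 ± 1.86 CPM in KO-labelled and 9.23 ± 0.420 CPM in WT-labelled libraries. CDKN1A, a classic KLF4 target, did not pass (-0.01).

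A search of 9428 other protein-coding genes (mean level 10 CPM or more) looked for the closest patterns. Those whose log2 CPM was most like EGR1 over the 6 libraries were MAP2, FSCN1, AKT1S1, ARHGDIA and H2AFX (Pearson r 0.998 to 0.999). All 5 were lower in the libraries labelled KO, so the likeness includes the difference between groups. Most like KLF6 were ZNF646, MAFK, TMCC1, MYO6 and PIK3CB (r 0.923 to 0.967), none of which passed the test. These are descriptions over 6 libraries with 2 groups.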

How the data were processed

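The authors deposited a table of raw, unscaled counts, 1 column for each library. The submitters' processing notes name GRCh38 (hg38) and the tools HISAT2, STAR, fastp and DESeq; for versions, roles and the counter the entry is not given in the sources used here. Per the labels' protocols libraries came from a NEBNext Ultra kit, which does not mark strand, so overlapping genes cannot be told apart. The log2 fold changes and p-values of the authors' deposited table, per the file headers, are quoted only as such.

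The test was the two-sided quasi-likelihood F-test of edgeR 4.0.16 in R 4.3.3 (glmQLFit and glmQLFTest with TMM factors and no covariate besides group; filterByExpr with minimum count 10 and total 15). Benjamini-Hochberg adjustment ran over all 16655 genes, with 3 libraries a group. Standard errors come from the F statistic. The step was also run on simulated counts in which few genes changed, unlike here. That run therefore does not measure error rates in these data. No library was a duplicate, since replicate pairs exceeded sampling noise with a chi-square of 2.40 to 6.20 for each degree of freedom.

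The members and all lists were chosen with earlier results of these data known. Named from each list were up to 3 called genes with the largest change, or the smallest p where none passed; a few that this rule names are not reported here; MRTFA and MRTFB were first listed under older symbols. List members beyond that rule (such as FOS, NAB2, CDKN1A, THBD and CXCL1), and the neighbours and windows shown, were chosen after their values were seen. Promoters are from RefSeq, and 3′ untranslated regions from 1 GENCODE 29 transcript a gene.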

Additional observations from a re-analysis of the deposited data

How the results depend on the processing

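EGR1, IER3, KLF2 and KLF4 kept direction and call in all 16 alternatives: other scaling factors (DESeq2, upper quartile, TMM without chromosome 5), cyclic loess, no or a stricter filter, DESeq2 1.42.0, limma-voom 3.58.1, protein-coding genes alone, the replicate block and each library left out. Their log2 fold changes ran from -0.57 to -0.46, -0.60 to -0.46, 0.74 to 1.00 and 0.42 to 0.53. IER2 kept its direction (0.13 to 0.22) and lost its call in 6 of 16. KLF6, KLF10 and ZFP36 never passed, and KLF6 and ZFP36 changed sign in 2 alternatives each. At an adjusted p threshold of 0.01, 2 members were higher and 2 lower. With the replicate block 3 members were higher and 2 lower, and 4270 and 4172 of all genes; deviations of same-numbered libraries correlated at -0.02 to 0.02, so the numbers were not taken as pairs. Depth limits EGR2 and EGR3, with 4 and 6 counts in KO-labelled and 5 and 13 in WT-labelled libraries.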

Other observations

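Heat shock genes, which encode chaperones and are induced by stress, were 6 lower and 1 higher of 8 tested in the libraries labelled KO (median log2 fold change -0.35). HSPH1 had 239.6 ± 11.2 CPM in KO-labelled and 386.1 ± 20.9 CPM in WT-labelled libraries (SD, n = 3 each), and the constitutive chaperone HSPA8 had 1882 ± 58.6 CPM in KO-labelled and 2721 ± 104.5 CPM in WT-labelled ones. The inducible HSPA1A was also lower (-0.36), with the near-identical HSPA1B, with which reads can be shared, at -0.18. HSPB1 was the 1 that rose (0.27), and 2 were higher under cyclic loess. Their part in the values of EGR1 and IER3 was not tested.

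Genes of the TGF-beta response, to which KLF10 belongs, were 3 higher and 3 lower of 10. The ligand TGFB1 fell (-0.31), and ID1, which BMP signals induce, rose (0.65), with 535.2 ± 21.8 CPM in KO-labelled against 340.2 ± 34.0 CPM in WT-labelled libraries.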
